A study of Mus musculus with 15 samples.

Results

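Foxp3, the long non-coding RNA Flicr that neighbours it, the 4 Ikaros family genes Ikzf1, Ikzf2, Ikzf3 and Ikzf4, and the Runx complex genes Runx1, Runx3 and Cbfb are described here in regulatory T cells (Tregs) of 3 mouse tissues. They were taken by gene symbol from the deposited table of raw read counts, so 9 of its 45706 genes are covered. All 9 passed the filter on low counts, which left 18423 genes for testing.

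The study sequenced messenger RNA of sort-purified Foxp3+ T cells in bulk, in 15 libraries. Cells came from the spleen of dDC mice (3 libraries) and control mice (3), the thymus of dDC mice (2) and control mice (3), and the peritoneal cavity of dDC mice (2) and control mice (2). The label RelB-dDC is not spelled out, and is read here as adult mice whose dendritic cells lack RelB (an NF-kappaB subunit). Controls were adult littermates, all animals were of the C57BL/6 strain, and both genotypes carried a Foxp3 reporter allele through which the cells were sorted. The control libraries are labelled ctr by cell type and wt in their titles. For the deletion, the driving promoter is not given in the sources used here, nor is the structure of the reporter. Tregs themselves are not the cells named in the deletion, so no gene in these libraries checks the genotype labels. Nothing says that the libraries of a group came from separate animals, and p-values measure only the spread between these libraries.

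Foxp3 is the forkhead transcription factor that defines Tregs, and its loss leads to fatal autoimmunity in mice and humans. It works with partners: the Ikaros family zinc finger proteins Ikaros (Ikzf1), Helios (Ikzf2), Aiolos (Ikzf3) and Eos (Ikzf4), and the heterodimers of a Runx protein with Cbfb, the subunit that does not itself contact DNA. In mouse Tregs, Eos recruits a corepressor to Foxp3 and silences effector cytokine genes, Helios marks most thymus-derived Tregs and helps to keep them stable, and Runx with Cbfb binds Foxp3 and the regulatory elements of its gene. Flicr has been reported in mice to act on Foxp3 on the same chromosome and to restrain it.

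Foxp3 (ENSMUSG00000039521) lies on chromosome X at 7579676 to 7595243 on the plus strand in mm10, and Flicr (ENSMUSG00000039545) at 7573600 to 7581015 on the same strand. The last counted exon of Flicr runs from position -1768 to position 1339, counted from the Foxp3 start. The exons of both genes share 267 bases, which is 6.69% of the counted length of Foxp3 and 7.48% of that of Flicr. Reads from those bases cannot be assigned by position. The Foxp3 exons within the last Flicr exon run from position 0 to 170 and from 807 to 902. The rest of that Flicr exon after the Foxp3 start is Foxp3 intron on the same strand. Reads of unspliced Foxp3 RNA from there would count for Flicr. A further 590 bases of Foxp3 exons (14.8%) overlap Ccdc22 and 373 bases (9.35%) overlap Gm36995, both on the opposite strand, and the library chemistry does not mark strand. The 310 bases of Flicr's first exon (8.68%) likewise overlap Ppp1r3f.

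**Figure D1:**
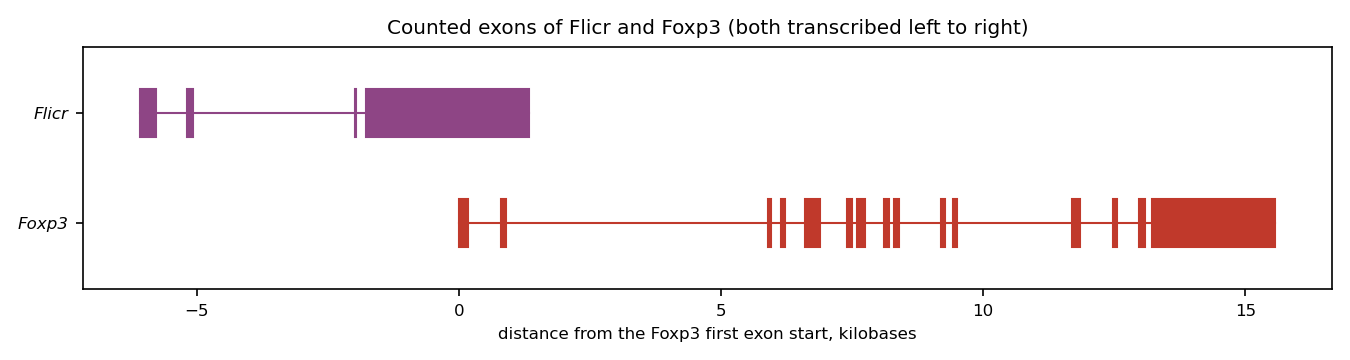
Counted exons (boxes) of Flicr and Foxp3 along the chromosome, with distance from the Foxp3 first exon start in kilobases on the x axis and a line for each gene. The last Flicr exon covers the start of Foxp3 and its first exons, where 267 exon bases belong to both genes.

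The 250 bases just before the first Foxp3 start are shown because they are promoter and, at the same time, exon of Flicr, so that reads from them count for Flicr. They are taken from RefSeq (GRCm38.p6, chrX:7579426-7579675, plus strand), and the capitals mark a TATA box match.

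Foxp3 promoter: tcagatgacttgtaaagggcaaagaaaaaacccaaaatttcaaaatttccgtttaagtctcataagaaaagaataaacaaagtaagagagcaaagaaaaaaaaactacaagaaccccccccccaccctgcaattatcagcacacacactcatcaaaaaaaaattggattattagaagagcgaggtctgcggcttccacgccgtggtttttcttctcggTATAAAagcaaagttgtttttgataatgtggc

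The TATA box letters TATAAA occur on either strand in 12.4% of 32851 promoter windows of the same length. The windows were also searched on both strands for the Runx letters TGTGGT, the Ikaros letters GGGAA and the forkhead letters TGTTTAC, which 14%, 56.2% and 3.17% of the windows hold. None of these matched in the 250 bases before Foxp3. RefSeq promoter windows were found for 6 of the 9 genes, with 10 starts in all.

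The first start windows of Runx3 and Runx1 are shown because both hold the same tandem pair of Runx letters, in capitals as the complement ACCACA, and because Runx proteins are known to bind the distal promoters of their own genes. The Runx3 stretch (GRCm38.p6, chr4:135120504-135120530, plus strand) starts 141 bases before the start, and the Runx1 stretch (chr16:92826027-92826053, minus strand) begins 22 bases after it.
Runx3: tccctcaACCACAgaACCACAaggcca
Runx1: ataaacaACCACAgaACCACAagttgg
This pair, with the same base before it and the same spacer, was found in 4 of 32851 windows of 300 bases (0.0122%), those of Runx1, Runx2, Runx3 and Gm16225. The pair was noticed after the sequences were read, and a match shows letters, not binding.

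Per kilobase of counted exon, Helios RNA was the highest of the 9 genes, at a mean of 84.1 CPM per kilobase over the 15 libraries (CPM are counts scaled to a common library total), above 95.2% of tested genes. Foxp3 (62.1), Ikzf4 (61.7) and Ikzf1 (57.5) followed close together. Cbfb had 19.6 and Ikzf3 16.1 CPM per kilobase. Flicr (8.91), Runx3 (6.25) and Runx1 (5.98) were the lowest, yet Runx1 still lay above 59% of tested genes. Over the libraries the highest CPM of Foxp3 was 1.83 times the lowest. This was the smallest such ratio of the 9, close to that of Runx1 (1.855). Flicr had the largest, at 5.29 times. Ikzf4 varied 4.55-fold and Runx3 3.56-fold.

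**Figure D2:**
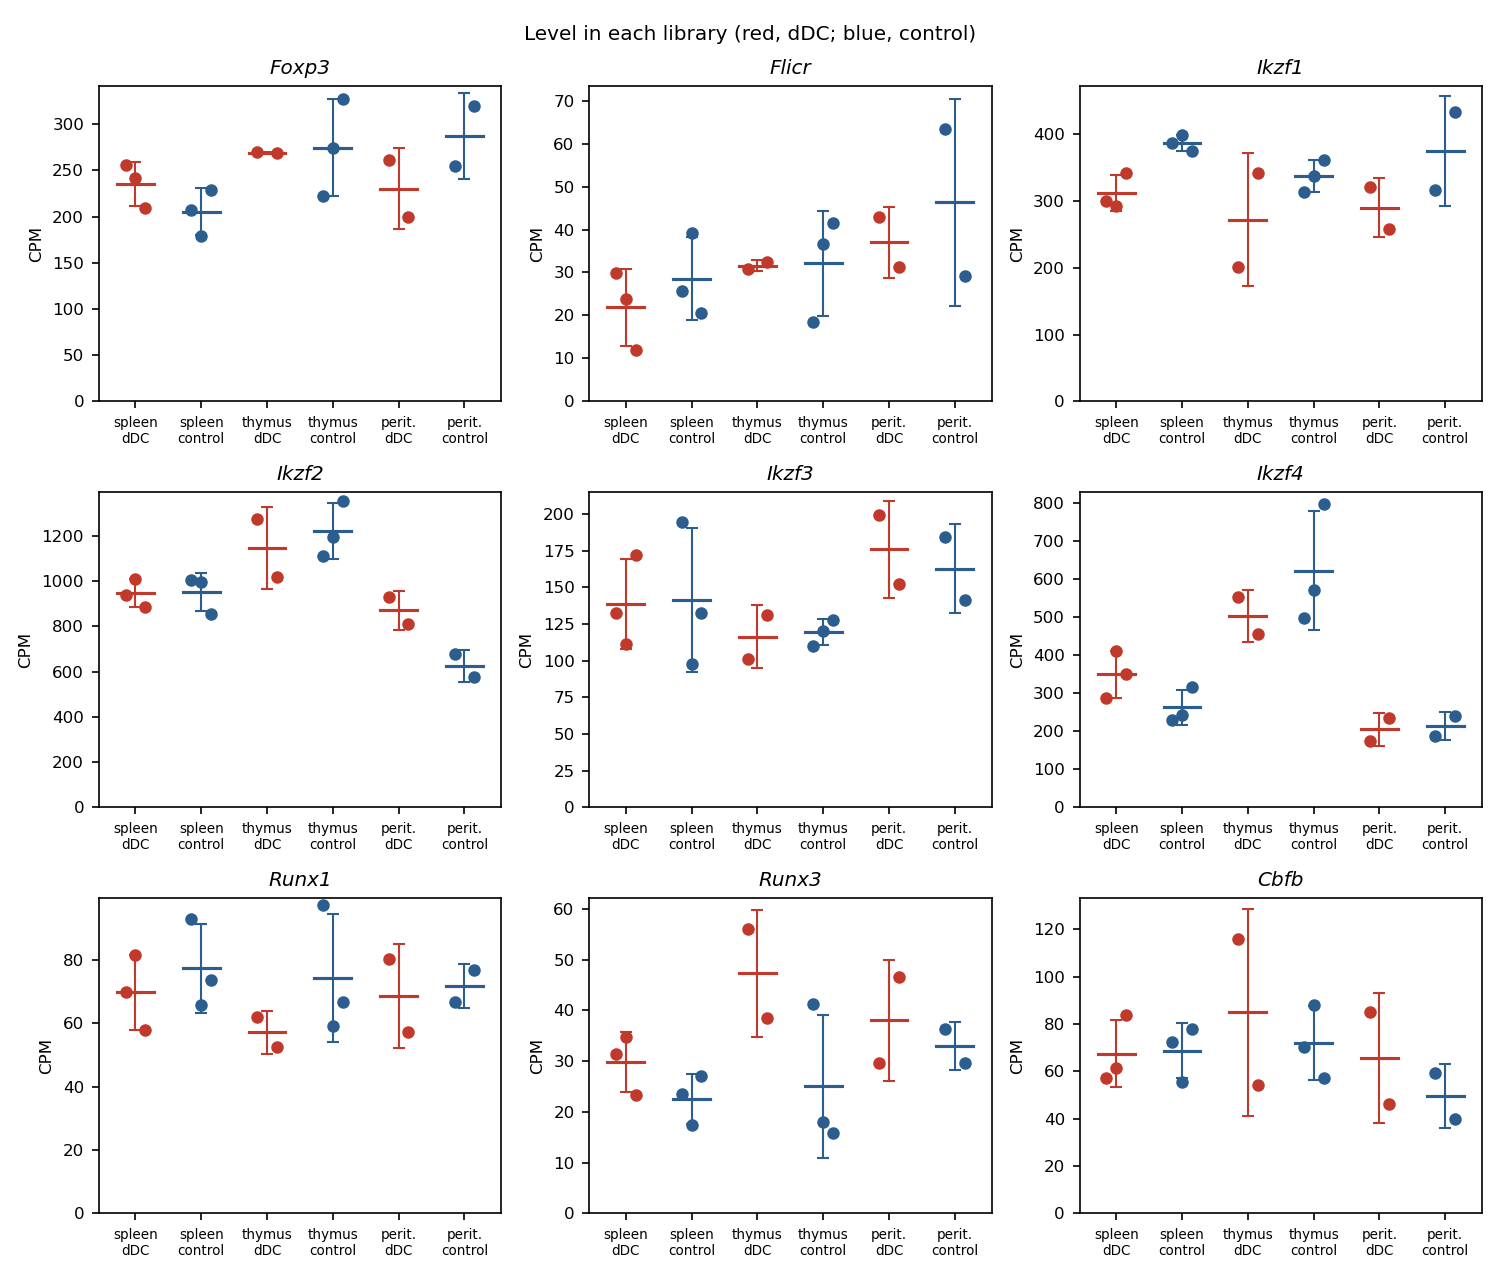
Level of each of the 9 genes (y axis, CPM from 0) in every library, by tissue, with dDC libraries in red left of control libraries in blue. Every thymus point of Ikzf4 (at least 455.4 CPM) lies above every spleen and peritoneal point, while Foxp3 stays between 178.6 and 326.9 CPM in all libraries.

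Foxp3 itself had 256.0, 241.3 and 209.5 CPM in dDC spleen, against 207.6, 178.6 and 229.1 CPM in control spleen. In thymus it had 269.6 and 268.4 CPM in dDC mice, against 222.0, 274.7 and 326.9 CPM in controls. In the peritoneal cavity it had 260.9 and 199.2 CPM in dDC mice, against 254.5 and 320.0 CPM in controls. The genotypes overlapped in all 3 tissues, and the dDC value exceeded its tissue's control mean in 3 of 7 libraries. By group mean the order was control peritoneal cavity (287 ± 46.4, SD, n = 2), control thymus (275 ± 52.4, n = 3), dDC thymus (269 ± 0.857, n = 2), dDC spleen (236 ± 23.8, n = 3), dDC peritoneal cavity (230 ± 43.7, n = 2) and control spleen (205 ± 25.3, n = 3). The ranges of neighbours in this order overlapped, except those of dDC thymus and dDC spleen. The share of all genes with separate ranges is not given for that pair, so this is a description. Since cells were sorted by a Foxp3 reporter, presence of Foxp3 RNA was selected. In bulk samples, fewer cells that express a gene and less RNA per cell cannot be told apart.

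The first question is whether Tregs from dDC mice differ from those of littermates. Averaged over the 3 tissues with equal weight, 0 of the 9 genes passed an adjusted p of 0.05 (edgeR quasi-likelihood test, Benjamini-Hochberg over all tested genes), where 0.076% of all 18423 genes did, and limma voom and DESeq2 also called 0 of 9. Foxp3 differed by a log2 fold change of -0.05 (SE 0.11, 95% interval -0.28 to 0.18, edgeR adjusted p = 0.984). Of the 9, Ikzf1 alone was under 0.05 before adjustment, as were 9.31% of all genes, so this count is near the background.

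Within tissues, 0 of 9 passed in spleen, thymus and peritoneal cavity with edgeR, limma voom and DESeq2 alike. All genes passed at 0% in spleen, 0% in thymus and 0.00543% in the peritoneal cavity (1 gene). At unadjusted p below 0.05 there were 0 of the 9 in spleen, 1 in thymus (Runx3) and 1 in the peritoneal cavity (Ikzf2), against 4.27%, 6.57% and 6.36% of all genes in these tissues. These counts too are near the background. Foxp3 had log2 fold changes of 0.20 in spleen (95% interval -0.16 to 0.56), -0.03 in thymus (-0.43 to 0.37) and -0.32 in the peritoneal cavity (-0.76 to 0.12).

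**Figure D3:**
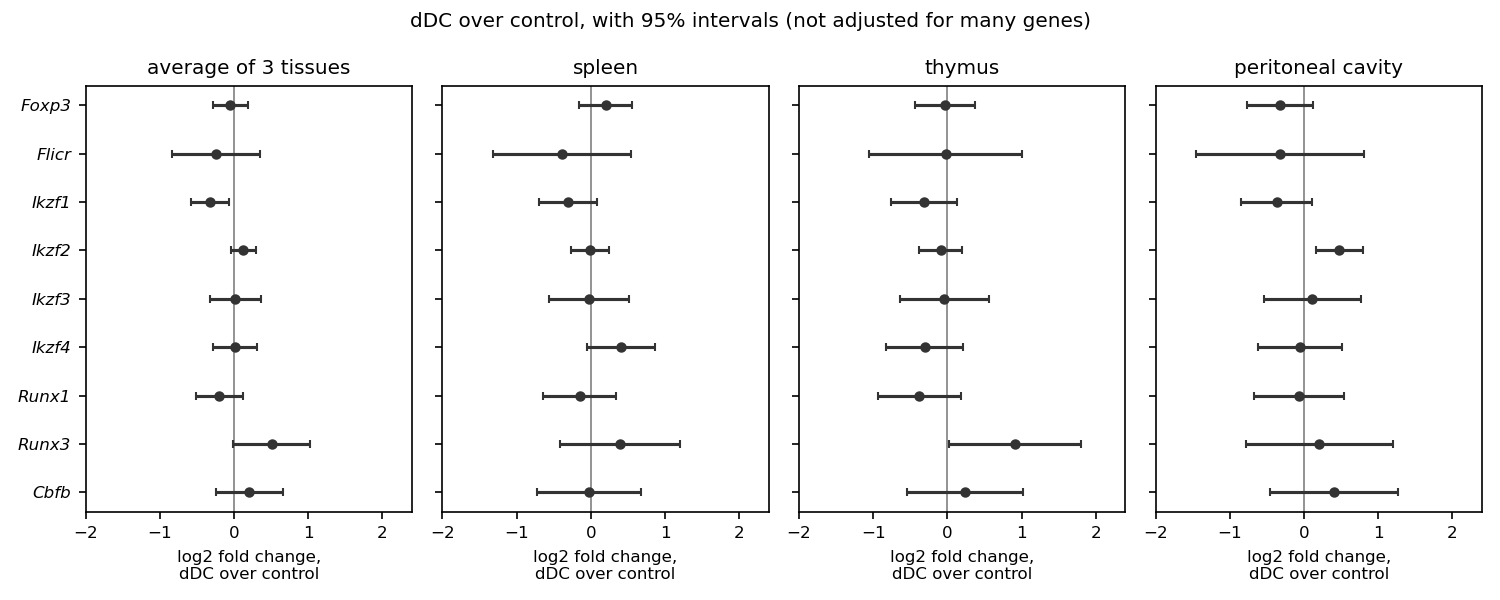
Log2 fold change of dDC over control (x axis) for the 9 genes (y axis), averaged over tissues and in each tissue, with 95% intervals that are not adjusted for the number of genes. Runx3 lies right of 0 and Ikzf1 left of 0 in every panel, and no gene passed the adjusted threshold in any of them.

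Among the Ikaros genes, Ikzf1 (ENSMUSG00000018654, chromosome 11, 11685003 to 11772926, plus strand) encodes Ikaros, a zinc finger protein of all lymphocytes. It had 300.7, 292.5 and 342.5 CPM in dDC spleen, against 387.0, 398.6 and 374.4 CPM in control spleen. In thymus the values were 201.4 and 342.7 CPM in dDC mice, against 313.8, 337.8 and 361.2 CPM in controls. In the peritoneal cavity they were 321.9 and 258.8 CPM in dDC mice, against 316.4 and 433.9 CPM in controls. The spleen groups did not overlap, as was so for 1 of the 9 genes and for 10.1% of all genes tested there, and 6 of 7 dDC libraries were under their tissue's control mean. The averaged log2 fold change was -0.33 (SE 0.12, 95% interval -0.59 to -0.07, unadjusted p = 0.0157, edgeR adjusted p = 0.413). Leaving out a library moved the averaged value over 1.5 times in 1 case, to -0.22 without the first dDC thymus library, which had the lowest level of all.

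B cells also express Ikzf1 and Ikzf3, and all 10 B cell markers examined were read in these libraries. Their summed level was 3403 to 3894 CPM in dDC spleen and 2697 to 3852 in control spleen, 1643 to 1680 in dDC thymus and 1147 to 1448 in control thymus, and 3787 to 5649 in dDC peritoneal cavity and 3500 to 5828 in control peritoneal cavity. Among those at 0 were Pax5 and Blk in both dDC thymus libraries, with Ms4a1 in the first. In control thymus, Ms4a1 and Pax5 were at 0 in the first library and Cd22 in the third. The 7 T cell and Treg markers (Cd3e, Cd3d, Cd4, Trac, Il2ra, Ctla4 and Foxp3) summed to between 4829 and 7601 CPM, with none at 0. Foxp3 is thus part of that sum, and its presence was selected by the sort. The part of B cell RNA in the levels of Ikzf1 and Ikzf3 was not tested.

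Ikzf2 (ENSMUSG00000025997, chromosome 1, 69531214 to 69687245, minus strand) encodes Helios. It had 931.7 and 808.8 CPM in dDC peritoneal cavity, against 676.6 and 576.4 CPM in control peritoneal cavity. In spleen it had 940.6, 1010 and 886.5 CPM in dDC mice, against 1005, 996.8 and 854.9 CPM in controls. In thymus it had 1273 and 1019 CPM in dDC mice, against 1113, 1197 and 1354 CPM in controls. The peritoneal groups did not overlap, while those of spleen and thymus did. The peritoneal log2 fold change was 0.47 (SE 0.14, 95% interval 0.16 to 0.79, unadjusted p = 0.00666), but it did not pass with edgeR (adjusted p = 0.574). Separate ranges are common with 2 libraries against 2: 34.1% of all genes had them there, and 1 of the 9. In spleen the value was -0.01 (95% interval -0.27 to 0.25) and in thymus -0.09 (-0.38 to 0.20).

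The genotype difference of Helios was also set against itself between tissues. The peritoneal difference exceeded that of thymus by 0.57 (95% interval 0.14 to 0.99, edgeR adjusted p = 0.84) and that of spleen by 0.48 (0.08 to 0.89, adjusted p = 0.998). For Ikzf4 the thymus difference was below that of spleen by a log2 value of -0.72 (-1.41 to -0.02, adjusted p = 0.965). Each of these 3 comparisons of tissues called 0 of the 9 genes with edgeR, limma voom and DESeq2, against 0% of all genes with edgeR. In each, 1 of the 9 was under an unadjusted 0.05, against 5.72% of all genes for peritoneal cavity and thymus, 4.89% for peritoneal cavity and spleen, and 5.06% for thymus and spleen. The peritoneal control libraries that enter them differ in macrophage and dendritic cell markers: the 11 markers summed to 1647 CPM in the second control library, against 66.72 CPM in the first. In both dDC peritoneal libraries the sum was 164.4 and 274.3 CPM. C1qa, C1qb, Itgax and Xcr1 were at 0 in the first control library, Xcr1 in the second, and Itgax, among others, in the first dDC library. Without the second control library the Helios difference was 0.36 and without the first 0.60, and the part of those cells in it was not tested.

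Ikzf3 (ENSMUSG00000018168, chromosome 11, 98464902 to 98546031, minus strand) encodes Aiolos, a relative of Ikaros that lymphocytes gain as they mature. Its levels ran from 97.5 to 200 CPM over all libraries, and the genotypes overlapped in every tissue. Averaged, its log2 fold change was 0.02 (SE 0.16, edgeR adjusted p = 1).

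Ikzf4 (ENSMUSG00000002578, chromosome 10, 128630843 to 128645991, minus strand) encodes Eos. In spleen it had 287.4, 411.1 and 349.8 CPM in dDC mice, against 228.7, 243.5 and 315.8 CPM in controls. In thymus it had 551.9 and 455.4 CPM in dDC mice, against 496.6, 571.7 and 797.5 CPM in controls. In the peritoneal cavity it had 175.1 and 236.2 CPM in dDC mice, against 187.3 and 240.2 CPM in controls. The genotypes overlapped in each tissue, but no thymus library of either genotype came down to any spleen or peritoneal library. For this split over both genotypes no share of all genes is given. The dDC log2 fold changes were 0.41 in spleen (95% interval -0.05 to 0.87), -0.30 in thymus (-0.82 to 0.21) and -0.06 in the peritoneal cavity (-0.62 to 0.51), and 0.02 on average (SE 0.14, edgeR adjusted p = 1).

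Of the Runx complex, Runx3 (ENSMUSG00000070691, chromosome 4, 135120652 to 135177990, plus strand) is the member most tied to CD8 and cytotoxic T cells. It had 56.08 and 38.49 CPM in dDC thymus, against 41.32, 18.05 and 15.74 CPM in control thymus. In spleen it had 31.42, 34.81 and 23.26 CPM in dDC mice, against 23.51, 17.32 and 27.01 CPM in controls. In the peritoneal cavity it had 29.56 and 46.50 CPM in dDC mice, against 36.30 and 29.65 CPM in controls. The groups overlapped in every tissue, in thymus only through the first control library, and 6 of 7 dDC libraries exceeded their tissue's control mean. The thymus log2 fold change was 0.92 (SE 0.41, 95% interval 0.03 to 1.81, unadjusted p = 0.0446, edgeR adjusted p = 0.748), and 0 of the 9 genes had separate ranges there, against 19.4% of all genes. Without that first control library the value was 1.49. Averaged over tissues it was 0.51 (SE 0.24, 95% interval -0.01 to 1.03, edgeR adjusted p = 0.549). The 8 NK and CD8 T cell markers summed to 36.31 and 62.98 CPM in dDC thymus, against 59.17, 67.62 and 52.4 CPM in control thymus. Several of them were at 0 in each of these libraries but the second control library. The part of such cells in the Runx3 values was not tested.

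Runx1 (ENSMUSG00000022952, chromosome 16, 92601466 to 92826149, minus strand), known for its role in blood stem cell formation, ran from 52.4 to 97.3 CPM. Its averaged log2 fold change was -0.20 (SE 0.15, edgeR adjusted p = 0.75). Cbfb (ENSMUSG00000031885, chromosome 8, 105170674 to 105217989, plus strand) ran from 40.0 to 116 CPM, with 0.21 (SE 0.21, edgeR adjusted p = 0.859). The genotypes overlapped in every tissue for both genes.

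The balance between both Runx genes was also described, per length and without a test. In dDC spleen there were 106.4, 100.9 and 94.84 units of Runx3 per 100 of Runx1, against 59.79, 62.35 and 86.63 in control spleen. In dDC thymus there were 214.2 and 173.5, against 100.4, 72.12 and 55.69 in control thymus. In dDC peritoneal cavity there were 86.98 and 192.3, against 128.3 and 91.21 in control peritoneal cavity. The ratios of dDC and control libraries stood apart in spleen and thymus and overlapped in the peritoneal cavity. Among all single genes, 10.1% had separate ranges in spleen and 19.4% in thymus, while neither Runx gene alone did. For ratios no such share was computed. The ratio was chosen with the values known, and it is a description of these libraries.

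Flicr had 29.76, 23.79 and 11.99 CPM in dDC spleen, against 25.79, 39.26 and 20.58 CPM in control spleen. In thymus it had 30.73 and 32.50 CPM in dDC mice, against 18.39, 36.53 and 41.48 CPM in controls. In the peritoneal cavity it had 42.84 and 31.17 CPM in dDC mice, against 63.40 and 29.20 CPM in controls. The genotypes overlapped throughout, and the averaged log2 fold change was -0.24 (SE 0.27, 95% interval -0.84 to 0.35, edgeR adjusted p = 0.886). It depended on single libraries, at -0.020 without the first control peritoneal library and -0.39 without the second. Per length there were 6.39 to 27.8 units of Flicr for every 100 of Foxp3 over the 15 libraries. Across libraries the log2 levels of Flicr and Foxp3 had a Pearson r of 0.341, and 0.159 after each tissue's mean was removed. Libraries of a tissue share cells of like kind. The genes share exon bases, and the last Flicr exon also covers Foxp3 intron. These values and the ratio per length are descriptions.

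The second question is how the genes differ between tissues, and here Eos and Helios passed the test. In control mice Ikzf4 was higher in thymus than in spleen Tregs, at 622 ± 157 CPM in thymus and 263 ± 46.6 CPM in spleen (SD, n = 3 each). The log2 fold change was 1.24 (SE 0.21, 2.37-fold, 95% interval 0.78 to 1.71, edgeR adjusted p = 0.0241). It was the 1 gene of the 9 to pass, where 0.603% of all genes did. Ikzf2 had a log2 value of 0.36 (adjusted p = 0.297) and Foxp3 of 0.42 (adjusted p = 0.432). Separate ranges were seen for 3 of 9 (Ikzf1, Ikzf2 and Ikzf4) against 14.8% of all genes.

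In control mice, peritoneal Tregs had less Eos and Helios RNA than thymus Tregs. Ikzf4 averaged 214 ± 37.4 CPM in peritoneal cavity (SD, n = 2) and 622 ± 157 CPM in thymus (n = 3), a log2 fold change of -1.54 (SE 0.25, 0.344-fold, edgeR adjusted p = 0.00657). Ikzf2 averaged 627 ± 70.9 CPM in peritoneal cavity and 1222 ± 122 CPM in thymus, a log2 fold change of -0.96 (SE 0.14, 0.513-fold, edgeR adjusted p = 0.00268). These were the 2 of the 9 to pass, against 2.47% of all genes, and the comparison shares its thymus libraries with the one before. Foxp3 had a log2 value of 0.07 (95% interval -0.34 to 0.47, adjusted p = 0.936). The 7 T cell and Treg markers summed to 4829 to 5382 CPM in control peritoneal cavity and 6229 to 6925 CPM in control thymus, and 3 of the 7 (Trac, Il2ra and Ctla4) were lower by the same test. The part of this in the values of Ikzf2 and Ikzf4 was not tested. Separate ranges were seen for 3 of 9 (Ikzf2, Ikzf3 and Ikzf4) against 28.4% of all genes.

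Between peritoneal cavity and spleen of control mice, 0 of 9 passed with edgeR, against 0.792% of all genes, and 2 were under an unadjusted 0.05, against 10.6% of all genes. Ikzf2 had a log2 fold change of -0.60 (95% interval -0.90 to -0.31, edgeR adjusted p = 0.0713), which passed with DESeq2 (adjusted p = 0.00333) and not with limma voom. Foxp3 had 0.49 (edgeR adjusted p = 0.354) and Ikzf4 -0.30 (adjusted p = 0.701). Separate ranges were seen for 3 of 9 (Foxp3, Ikzf2 and Runx3) against 25% of all genes.

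In dDC mice, Ikzf4 was again lower in peritoneal than in thymus Tregs, at 206 ± 43.2 CPM in peritoneal cavity and 504 ± 68.2 CPM in thymus (SD, n = 2 each). The log2 fold change was -1.29 (SE 0.26, 0.408-fold, edgeR adjusted p = 0.0327), the 1 gene of the 9 to pass against 1.35% of all genes. Ikzf2 had -0.40 there (95% interval -0.71 to -0.08, adjusted p = 0.28) and Foxp3 -0.23 (adjusted p = 0.74). Thymus against spleen called 0 of 9 with edgeR, limma voom and DESeq2 (0.179% of all genes), with Ikzf4 at 0.53 (edgeR adjusted p = 0.635) and alone of the 9 under an unadjusted 0.05 (7.75% of all genes). Peritoneal cavity against spleen also called 0 of 9 with these tools (0.906% of all genes), with Ikzf4 at -0.77 (edgeR adjusted p = 0.273) and alone of the 9 under an unadjusted 0.05 (8.64% of all genes).

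The order of Ikzf4 by group mean was control thymus, dDC thymus, dDC spleen, control spleen, control peritoneal cavity and dDC peritoneal cavity. Neighbours in this order overlapped except dDC thymus and dDC spleen. For Ikzf2 the order was control thymus, dDC thymus, control spleen, dDC spleen, dDC peritoneal cavity and control peritoneal cavity. Its neighbours overlapped except dDC thymus with control spleen, and dDC with control peritoneal cavity. Between the peritoneal groups 34.1% of all genes had separate ranges. For the other pairs named here no share over all genes is given, and both orders are descriptions.

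These calls rest on few libraries. The control thymus against spleen call of Ikzf4 was lost without the first control spleen library (adjusted p = 0.11), the second (0.0982), the second control thymus library (0.0553) or the third (0.102), with log2 values of 1.02 to 1.40 over all 6 omissions (edgeR). The Ikzf2 call between control peritoneal cavity and thymus was lost without the second control peritoneal library (-0.85, adjusted p = 0.0527), the library with 1647 CPM of macrophage markers. The Ikzf4 call there was kept in all 5 omissions (highest adjusted p = 0.0454). In dDC mice the peritoneal against thymus call of Ikzf4 was lost without the first dDC thymus library (adjusted p = 0.235), the second (0.0506), the first dDC peritoneal library (0.226) or the second (0.105). All 4 calls were lost when only the groups compared entered the fit, while the log2 values hardly moved: 1.24 for Ikzf4 in control thymus over spleen (adjusted p = 0.0903), -1.53 for Ikzf4 (0.0912) and -0.95 for Ikzf2 (0.0718) in control peritoneal cavity over thymus, and -1.30 for Ikzf4 in dDC mice (0.185).

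With both genotypes averaged, a comparison added after the data were seen, Ikzf4 passed between thymus and spleen (log2 0.89, edgeR adjusted p = 0.0171, against 1.32% of all genes). Between peritoneal cavity and thymus, Ikzf4 (-1.42, adjusted p = 0.00073) and Ikzf2 (-0.68, adjusted p = 0.00169) passed, against 5.61% of all genes. Between peritoneal cavity and spleen, where 2.89% of all genes passed, Ikzf2 had -0.36 (adjusted p = 0.0687) and Ikzf4 -0.53 (adjusted p = 0.153). The tissues also differ in other cells' RNA: summed B cell markers were lower in every thymus library than in any other library, and the 11 macrophage and dendritic cell markers summed to 23.66 to 30.39 CPM in dDC thymus and 15.4 to 37.46 CPM in control thymus. The corresponding sums in spleen were 120.3 to 368.5 CPM in dDC mice and 100.8 to 175.5 CPM in controls. The 8 erythroid markers summed to 2396 to 4243 CPM in dDC spleen and 2957 to 8056 CPM in control spleen, against at most 398.5 CPM in a thymus or peritoneal library. The 7 developing thymocyte markers summed to 161.7 to 213.4 CPM in dDC thymus and 185.8 to 255.7 CPM in control thymus. Their sums were 120.2 to 160.5 CPM in dDC spleen and 128.1 to 156.9 CPM in control spleen, and 214.8 to 222.0 CPM in dDC peritoneal cavity and 189.4 to 234.6 CPM in control peritoneal cavity. They were thus higher in every thymus library than in any spleen library, and overlapped between peritoneal cavity and thymus. Of the 5 tested, 1 passed between control peritoneal cavity and thymus, against 2.47% of all genes. This was Rag1 of antigen receptor rearrangement (edgeR adjusted p = 0.0343), at 0 in both control peritoneal libraries and read in every thymus library. By log2 value, Dntt (-11.2), Ccr9 (-1.86) and Arpp21 (-4.24) were lower there and Cd1d1 (0.51) higher, and none of these passed. Rag2, Dntt and Ptcra were also at 0 in both control peritoneal libraries, so the sums there came from Cd1d1, Ccr9 and Arpp21. Rag2 was at 0 in every control thymus library too. The part of other cells' RNA in the tissue differences was not tested.

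**Figure D4:**
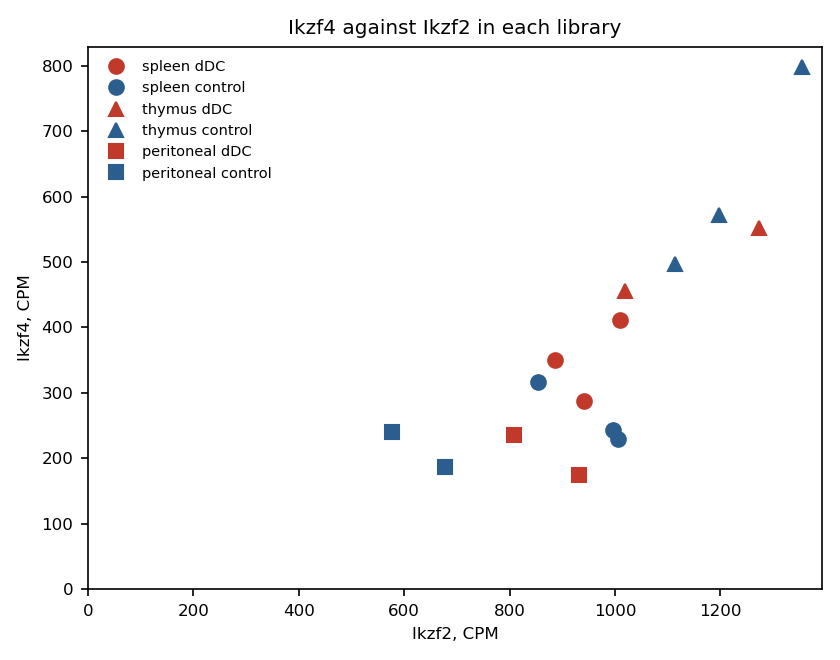
CPM of Ikzf4 (y axis) against CPM of Ikzf2 (x axis), 1 point per library, with shapes for tissues and red for dDC, blue for control. Thymus libraries lie above and to the right of all others, and both control peritoneal libraries (676.6 and 576.4 CPM of Ikzf2) lie farthest left.

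Across the 15 libraries the log2 levels of Ikzf2 and Ikzf4 had a Pearson r of 0.755, and 0.027 after tissue means were removed. The relation seen over all libraries was thus near 0 within tissues. Within tissues, the strongest relation among the 9 genes was between Ikzf1 and Runx3, at -0.732, with -0.714 over all libraries. These values are descriptions over libraries that share tissue and genotype.

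As shares of the summed Ikaros family level per kilobase, Eos made up 34.5 ± 3.67% in dDC thymus and 36.6 ± 3.68% in control thymus. It made up 27.7 ± 3.45% in dDC spleen and 21.0 ± 4.03% in control spleen, and 19.3 ± 5.28% in dDC peritoneal cavity and 20.5 ± 2.30% in control peritoneal cavity. Helios was 27.4 to 44.2% in every library, with its lowest share in the second control peritoneal library. Ikaros took 25.8 ± 2.4% in dDC spleen and 32.1 ± 1.17% in control spleen. Aiolos stayed the smallest share, at most 12.8%. The Eos shares of dDC and control libraries overlapped in each tissue, while those of peritoneal and thymus libraries did not. For such shares no background over all genes was computed, and this is a description.

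**Figure D5:**
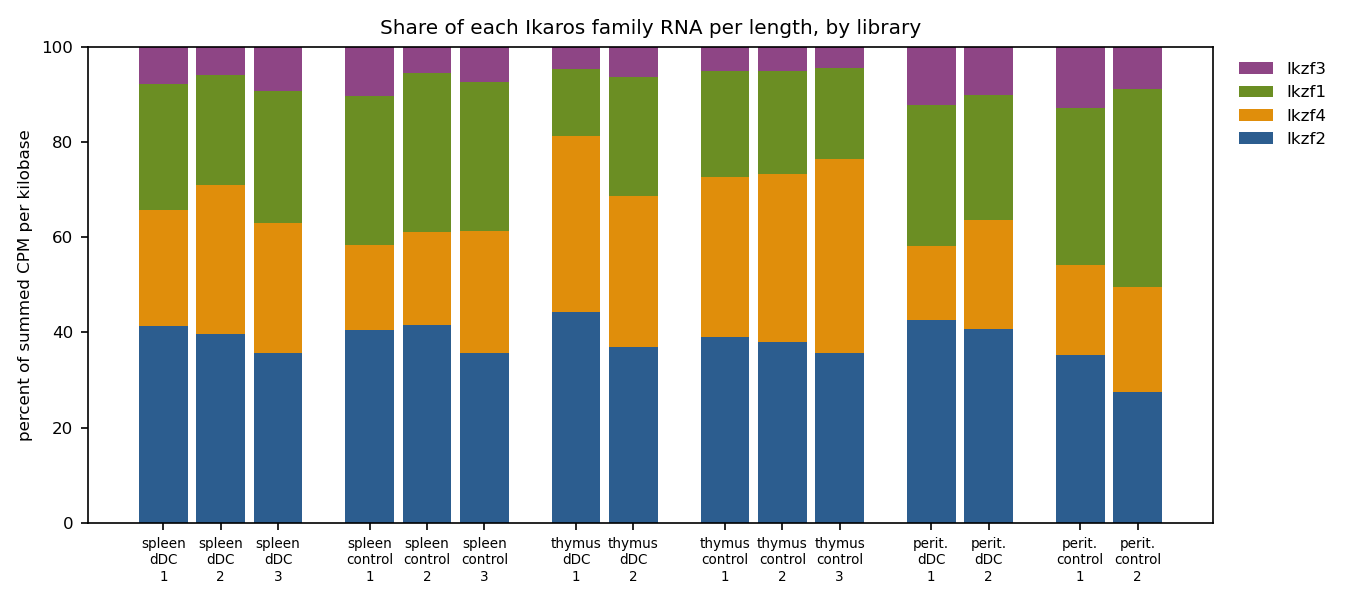
Share of each Ikaros family RNA in the summed CPM per kilobase of the 4 genes (y axis, percent), 1 bar per library, with dDC left of control in each tissue. The Eos share is 31.9 to 40.7% in thymus libraries and 15.5 to 23.0% in peritoneal libraries.

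Genes of like pattern were ranked by Pearson r of log2 CPM over the 15 libraries, among 7166 genes with a mean of at least 20 CPM. Closest to Foxp3 were Chkb (r 0.844), Sik3 (0.774), 2810013P06Rik (0.759), Zfp870 (0.756) and Arfip2 (0.75), and within tissues their r was 0.618 to 0.796. Ikzf2 was most like Wdr6 (0.938, within tissues 0.784) and Smox (0.899, 0.612). Ikzf4 was most like Abcg1 (0.921, 0.461) and Stat3 (0.92, 0.642), Runx3 like Svbp (0.906, 0.944), and Ikzf1 like Rabgap1 (0.868, 0.895) and Dapl1 (0.86, 0.879). Flicr was most like Ddx46 (0.848) and Fbxl4 (0.772), Ikzf3 like Jpt2 (0.84) and Gimap4 (0.79), and Runx1 like Dxo (0.806) and Sfpq (0.731). Eml5 (0.777) was among the genes most like Cbfb. High values of this kind arise readily when many genes are ranked over few libraries.

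Around the 9 genes, 5 lists were followed. Of 5 further Ikaros, Runx and Runx corepressor genes, 4 were tested and 0 passed in any comparison, and the 2 with the smallest p in the dDC average were Cbfa2t2 (log2 0.44, edgeR adjusted p = 0.443) and Runx2 (0.54, adjusted p = 0.645). Of 23 protein partners of Foxp3, 0 passed between genotypes. Rora, a nuclear receptor, had 0.74 (adjusted p = 0.0887) and Foxp1, a forkhead relative, -0.52 (adjusted p = 0.156). Their median was 0.00 against -0.02 for all genes.

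Between control peritoneal cavity and thymus, 2 of the 23 partners were lower and 0 higher, against 2.47% of all genes in either direction. These were Rel, an NF-kappaB subunit needed for Treg development (-1.56, edgeR adjusted p = 0.00799), and Stat3 (-1.08, adjusted p = 0.0195). The median of the 23 was -0.29 against -0.03 for all genes.

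Of 22 factors that act on the Foxp3 locus, 0 passed between genotypes in the average or in any tissue. Satb1, a chromatin organiser that opens Treg enhancers early in development, had -1.21 in the average (edgeR adjusted p = 0.0857) and Nr4a1, a nuclear receptor induced by T cell receptor signals, -0.93 (adjusted p = 0.398). The list's median was -0.13 against -0.02 for all genes.

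Stat5a, which carries the IL-2 signal to the Foxp3 locus, was higher in control thymus than in control spleen, at 164 ± 11.7 CPM in thymus and 71.6 ± 7.76 CPM in spleen (SD, n = 3 each; edgeR adjusted p = 0.00559). Stat5a was the 1 of the 22 to pass there, against 0.603% of all genes. It was lower in control peritoneal cavity than in control thymus (-1.02, adjusted p = 0.013), together with Bcl11b, a T cell identity factor (-1.07, adjusted p = 0.0011), and Nr4a3 (-4.52, adjusted p = 0.0237). Of the 22, 0 were higher and 3 lower there, against 2.47% of all genes in either direction. Nr4a3 was low in control peritoneal cavity, at 1.14 ± 0.81 CPM, against 26.5 ± 8.3 CPM in control thymus. Bcl11b was also lower in peritoneal cavity than in spleen, by -0.94 in controls (adjusted p = 0.00627) and -0.70 in dDC mice (adjusted p = 0.028). In each genotype it was the 1 of the 22 to pass, against 0.792% of all genes in controls and 0.906% in dDC mice. With only the groups compared in the fit, 1 gene of all tested passed in controls. In dDC peritoneal cavity against dDC thymus, Elf1 (1.05, adjusted p = 0.0222) and Ets1 (0.81, adjusted p = 0.0358), ETS factors that bind the Foxp3 locus, were higher, and Nr4a1 was lower (-3.90, adjusted p = 0.0134). Of the 22, 2 were thus higher and 1 lower, against 1.35% of all genes in either direction. With only the groups compared in the fit, no gene passed in that dDC comparison, so these calls were lost there.

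Of 20 genes known to be higher in Foxp3-expressing T cells, 1 passed in the dDC average, against 0.076% of all genes. This was Nrp1, a semaphorin co-receptor (0.62, SE 0.06, edgeR adjusted p = 0.00293). With neighbouring library numbers fitted as blocks, 0 genes passed in that average, so the Nrp1 call was lost there. The median of the list was 0.28 against -0.02 for all genes, and in single tissues 0 of the 20 passed. Between control peritoneal cavity and thymus 1 was higher and 9 were lower, against 2.47% of all genes in either direction, among them Itgae, the integrin that binds E-cadherin (-5.02, adjusted p = 0.00139), and Tnfrsf4, which encodes OX40 (-1.10, adjusted p = 0.00302). Between control thymus and spleen 3 were higher and 0 lower, against 0.603% of all genes in either direction: Ecm1 (1.30, adjusted p = 0.00103), Tnfrsf4 (1.18, adjusted p = 0.00207) and Tnfrsf18, which encodes GITR (0.88, adjusted p = 0.00559). Peritoneal cavity against spleen went both ways, with 5 higher and 2 lower in dDC mice (0.906% of all genes) and 2 higher and 4 lower in controls (0.792%). In both genotypes Ecm1 (1.37 in dDC mice, edgeR adjusted p = 0.000677, and 1.96 in controls, adjusted p = 7.4e-05) was higher there. Izumo1r, which encodes a folate receptor of Tregs, was lower (-2.01, adjusted p = 0.000724, and -1.79, adjusted p = 0.00235). With only the groups compared in the fit, 1 gene of all tested passed in controls, so Ecm1 and Izumo1r cannot both have kept their calls there.

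Of 12 genes repressed with Foxp3 and Eos, 0 passed between genotypes in the average or in any tissue, and 0 passed between tissues of control mice. In the average, Igfbp4 had -2.49 (edgeR adjusted p = 0.183), with a list median of -0.34 against -0.02 for all genes. In dDC mice 2 were higher and 0 lower in peritoneal cavity than in spleen, against 0.906% of all genes in either direction, while the median of the list was lower, at -0.29 against -0.01. These were Pde3b, a phosphodiesterase silenced by Foxp3 in mouse Tregs, at 22.2 ± 11.9 CPM in peritoneal cavity (SD, n = 2) and 2.42 ± 1.30 CPM in spleen (n = 3; 3.20, edgeR adjusted p = 0.0314), and Il7r, the IL-7 receptor chain (1.14, adjusted p = 0.0318). Ikzf4 itself was lower in dDC peritoneal cavity than in dDC spleen (-0.77, edgeR unadjusted p = 0.00811), with separate ranges. It did not pass after adjustment (edgeR adjusted p = 0.273), which does not show that its level was the same. The part of Eos in the values of Pde3b and Il7r was not tested.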

How the data were processed

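Bulk RNA-seq of sorted Tregs was analysed in 15 libraries of 6 groups, named by the labels. The authors deposited raw counts, whole numbers of reads per Ensembl gene in mm10. Reads were processed with bcl2fastq 2.19.1, GSNAP and featureCounts 1.6.0, per the submitters' processing notes. For strand and multi-mapped reads the setting is not given in the sources used here. Per the labels' protocols, cDNA was primed with poly-dT and amplified, with no molecular identifiers named, so reads are not independent molecules. Total counts were 15714286 to 24332044 per library, and 92 spike-in sequences were left out.

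Counts were fitted with edgeR 4.0.16 (R 4.3.3): filterByExpr on the 6 groups (18423 genes, 99.93% of counts), TMM factors, a robust quasi-likelihood model with a mean per group and 9 residual degrees of freedom, two-sided tests, and Benjamini-Hochberg adjustment over all tested genes at 0.05. The standard error is the log2 fold change divided by the root of its F value. CPM are TMM-scaled, and log2 CPM use a prior count of 2. The biological coefficient of variation had a median of 0.551 over all genes; among the 9 genes it ran from 0.131 (Ikzf2) to 0.376 (Flicr), so differences of Flicr and Runx3 are resolved less well.

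The alternatives were RLE factors, no filter, limma voom 3.58.1, DESeq2 1.42.0, a fit on only the groups compared, a block of neighbouring library numbers, and leaving out each library. The 9 genes, the lists and the tests were chosen with earlier results of these data known. Named genes were all 9, and from each list up to 4 past the threshold with the smallest p, or the 2 with the smallest p in the dDC average where none passed. A few genes that these rules select are not reported here.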

Additional observations from a re-analysis of the deposited data

How the results depend on the processing

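Between genotypes, 0 of the 9 genes passed under every alternative run. Between control thymus and spleen the count fell to 0 when only the groups compared entered the fit, against 1, and was 0 to 1 on leaving out a library. Between control peritoneal cavity and spleen DESeq2 called 1, against 0. Between control peritoneal cavity and thymus the count was 0 with only the groups compared, against 2, and 1 to 2 on leaving out a library. In dDC peritoneal cavity against thymus it was 0 with only the groups compared, against 1, and 0 on leaving out any library. With only the groups compared, fewer libraries estimate the spread, and the cause of each other change was not tested.

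Some values that passed no test changed sign. The dDC difference of Ikzf2 in spleen was 0.00091 with no filter and 0.0053 with limma voom. For Foxp3, peritoneal cavity against thymus gave 0.065 in controls and -0.080 with both genotypes averaged, a different comparison that adds the dDC libraries. On leaving out a library, the averaged dDC difference ran from -0.0083 to 0.36 for Cbfb, -0.12 to 0.014 for Foxp3, -0.054 to 0.12 for Ikzf3 and -0.057 to 0.093 for Ikzf4. In spleen it ran from -0.082 to 0.034 for Ikzf2. In thymus it ran from -0.15 to 0.13 for Foxp3, -0.74 to 0.024 for Ikzf1 and -0.26 to 0.068 for Ikzf2. In the peritoneal cavity it ran from -0.28 to 0.14 for Ikzf4 and -0.15 to 0.49 for Runx3. Foxp3 ran from -0.25 to 0.15 in dDC peritoneal cavity against spleen and -0.11 to 0.22 in control peritoneal cavity against thymus. The thymus minus spleen contrast of the Ikzf2 genotype difference ran from -0.25 to 0.071.

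The replicate block of neighbouring library numbers called 0 of the 9 genes between genotypes and 0 in the comparisons of genotype differences. Correlations of neighbouring libraries' deviations from their group means were -0.005 to 0.102. With 2 libraries in each peritoneal group, both pairs there give the same value by construction, so this check cannot exclude pairing. The main fit did not take the numbers as pairs. Over all genes, the dDC average called 14, against 384 with DESeq2, 39 with no filter and 0 with the block, and 5 to 110 on leaving out a library (110 without the first control peritoneal library). The peritoneal dDC count was 1, against 194 with DESeq2, 12 with no filter, 5 with limma voom and 0 with the block or only the groups compared, and 0 to 146 on leaving out a library (146 without the same one). For spleen and thymus the counts were 0, against 32 and 153 with DESeq2 and 0 and 3 with no filter, and the thymus count reached 52 without the second dDC thymus library. For tissues, DESeq2 called 588, 775 and 1403 genes in controls against 111, 146 and 455 with edgeR (thymus over spleen, peritoneal cavity over spleen, peritoneal cavity over thymus), and only the groups compared gave 55, 1 and 73. In dDC mice DESeq2 called 424, 584 and 992 against 33, 167 and 249, and only the groups compared gave 16, 57 and 0. No filter gave 60 against 33 for dDC thymus over spleen, and limma voom 22. Leaving out a library gave 50 to 84, 38 to 326 and 175 to 657 in controls and 4 to 81, 41 to 86 and 86 to 319 in dDC mice. The comparisons of genotype differences had 0 calls with edgeR and 36, 55 and 112 with DESeq2. Depth and 2 to 3 libraries per group limit what could be detected. Genotype intervals of Runx3, Flicr, Cbfb and Ikzf3 span more than a 2-fold range in every tissue. Those of Runx1 and Ikzf4 do so in thymus and peritoneal cavity.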
